A study of Mus musculus with 9 samples.

Results

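The mitosis and spindle genes are a list of 56 genes that build the mitotic spindle, drive entry into mitosis or separate the chromosomes, and they were measured here in innate lymphoid cells (ILCs) of mouse skin. Each gene was taken by its symbol in the array's platform annotation, and the probe set with the highest mean over the 9 arrays stood for it. A probe set of its own symbol was found for 55 of the 56 genes, out of 19752 genes in the whole series. Ccnb1, the cyclin B1 gene, had no probe set named for it in the table used and was not analysed here. Of the 55 measured genes, 40 were bright enough to be tested. The other 15 (Kif4, Kif2c, Kif15, Cenpe, Cenpf, Ndc80, Nuf2, Spc25, Ttk, Anln, Cdca5, Ncapg, Hmmr, Fbxo5 and Aspm) lay below a filter that left out the dimmest 30% of probe sets, at a mean intensity under 41.6. Just outside the filter were Kif2c and Ndc80, with geometric means of 37.99 and 38.22 intensity units, and just inside were Bub1 (45.3) and Dlgap5 (47.1).

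The study asked how ILCs that express the skin-homing chemokine receptor CCR10 differ from ILCs without it, both where the recombinase gene Rag1 is intact and where it is deleted. All samples came from female B6 mice that carried EGFP at 1 Ccr10 allele (CCR10 +/EGFP), so that green fluorescence stood for CCR10. CD45.2+ CD3- cells without lineage markers were sorted from digested skin into GFP+ and GFP- fractions, directly into Trizol. Where Rag1 was intact (Rag1-sufficient mice) there were 2 samples of each fraction. From Rag1-/- mice, which cannot make T or B cells, there were 2 samples of GFP+ and 3 of GFP- cells. Antibodies to CD3, CD5, B220, CD11b, Gr-1, the 7-4 antigen and a Ter antigen marked the cells to leave out, and none of these marks mast cells. No treatment or age was given, and nothing in the labels says that replicates were separate animals or that animals were not pooled. The p-values are therefore set against the spread of the samples alone, and that spread may be technical.

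In a dividing cell, cyclin-dependent kinase 1 with cyclins A and B starts mitosis, kinesin motors and microtubule-binding proteins build the spindle, and the spindle checkpoint holds the anaphase-promoting complex (APC/C) back until every chromosome is attached. Most of these genes are transcribed together late in the cell cycle and are off or low in resting cells, so that their RNA is widely used as a mark of dividing cells in a tissue. Group 2 ILCs, the common ILC of skin, are tissue-resident and divide when alarmin cytokines and common-gamma-chain cytokines reach them.

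The labelled cell type could be checked against markers. The 9 measured genes of an ILC list (among them Id2, Il7r, Gata3 and Thy1) summed to between 27930 and 31180 intensity units on all 9 arrays. Single markers of that list were less even. GFP+ minus GFP-, they ran from -1.11 to 0.64 on the log2 scale in Rag1-sufficient mice and from -1.17 to 0.19 in Rag1-/- mice. In each, 5 of 9 were negative and 0 were called in the tests below. The summed level of the 12 mast cell markers was 945.5 and 1028 in the Rag1-sufficient GFP+ samples and 10560 and 10740 in the GFP- samples. In Rag1-/- mice it was 4919 and 1384 in the 2 GFP+ samples and 4852 to 6161 in the GFP- samples, so that the 2 Rag1-/- GFP+ samples stood apart from each other. Neither label could be checked by its gene: Rag1 read between 28.4 and 31.4 on all 9 arrays, whatever the genotype, and Ccr10 read 163 and 130 in Rag1-sufficient GFP+ against 129 and 126 in GFP- samples. In Rag1-/- mice Ccr10 read 148 and 96.5 in GFP+ and 103, 125 and 109 in GFP- samples, and the fractions overlapped. In bulk samples such as these, fewer dividing cells and less RNA of a gene per dividing cell cannot be told apart.

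Levels of the mitosis and spindle genes were highest in GFP+ ILCs of Rag1-sufficient mice. The 55 genes summed to 9219 and 11170 intensity units on those 2 arrays, against 5570 to 6774 on the other 7. For 27 of the 55 genes both Rag1-sufficient GFP+ arrays read above every other array, as they did for 5.03% of all 24922 probe sets. They read above both Rag1-sufficient GFP- arrays for 42 of the 55, as they did for 24% of all probe sets. Replicate 2 of that group was the highest of all 9 arrays for 43 of the 55 genes and replicate 1 for 7. The 2 arrays also differed from each other in the same direction for most members: replicate 2 read above replicate 1 for 46 of 55, by a median of 0.20 on the log2 scale, while over all tested probe sets the median was 0.00.

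**Figure D1:**
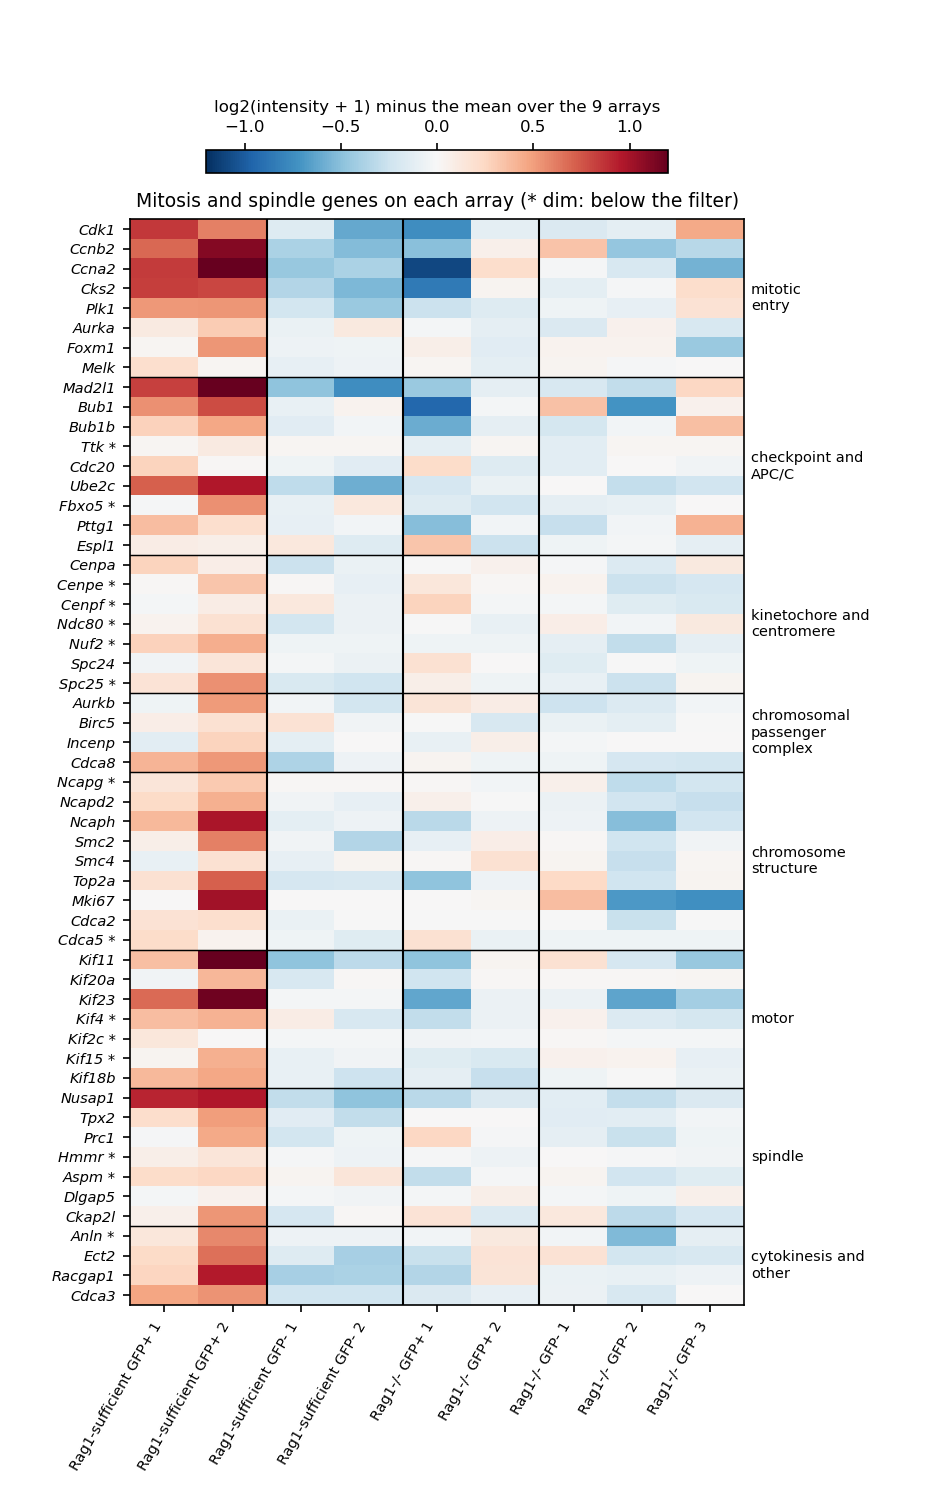
Level of each of the 55 measured genes (rows, grouped by role) on each of the 9 arrays (columns), as log2(intensity + 1) minus that gene's mean over the 9 arrays; red is above and blue below the mean, values past the ends of the colour bar share its end colours, and an asterisk marks the 15 genes below the filter. The 2 Rag1-sufficient GFP+ columns are the reddest, with replicate 2 above replicate 1 for 46 of the 55 genes.

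The first comparison was GFP+ against GFP- ILCs in Rag1-sufficient mice, tested with limma on log2(intensity + 1) and with p adjusted over all 17445 tested probe sets. In GFP+ cells 7 genes rose past the threshold of 0.05: Nusap1, Mad2l1, Ube2c, Plk1, Cdca3, Kif18b and Cdca8. None fell. In all, 0.332% of tested probe sets were called higher and 0.47% lower in this comparison (0.803% in either direction), beside 7 of 40 tested members. All 40 tested members had a positive difference, where 53.6% of all tested probe sets did, and the median member difference was 0.52 on the log2 scale, where the median of all tested probe sets was 0.01. With the filter left off, all 55 measured members had a positive difference (51% of all probe sets did), 6 were called higher (0.201% of all probe sets were), and the median was 0.39. Since the members that passed the filter include some that passed through their level in the GFP+ samples, these counts describe the list and are no test of it.

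Of the mitotic entry genes 1 of 8 tested rose. Plk1, the Polo-like kinase that acts from mitotic entry to cytokinesis, read 116 and 117 in Rag1-sufficient GFP+, 69.2 and 59.1 in Rag1-sufficient GFP-, 67.3 and 72.5 in Rag1-/- GFP+ and 77.6, 75.2 and 90.8 in Rag1-/- GFP- samples. Its 2 highest arrays were those of Rag1-sufficient GFP+ cells and no other group reached them. Plk1 rose 1.81-fold in GFP+ cells, by 0.85 ± 0.12 (log2, SE; adjusted p = 0.0182 with limma). Cdk1, the kinase that starts mitosis, read 243 and 205 in Rag1-sufficient GFP+, 121 and 87.5 in GFP-, and in Rag1-/- mice 79.6 and 124 in GFP+ and 119, 124 and 185 in GFP- samples. Its groups did not overlap in Rag1-sufficient mice, but the difference of 1.11 ± 0.28 did not pass (adjusted p = 0.132).

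The cyclins gave larger differences with larger errors. Ccnb2, which encodes cyclin B2, read 795 and 1062 in Rag1-sufficient GFP+ and 381 and 344 in GFP-, then 349 and 516 in Rag1-/- GFP+ and 628, 358 and 393 in Rag1-/- GFP- samples. Ccna2, for cyclin A2, read 346 and 606 in Rag1-sufficient GFP+ and 140 and 148 in GFP-, then 89.9 and 222 in Rag1-/- GFP+ and 190, 168 and 130 in Rag1-/- GFP- samples. Both cyclins were highest in the 2 Rag1-sufficient GFP+ samples, and the replicates of that group lay far apart for Ccna2. The differences were 1.34 ± 0.30 for Ccnb2 (adjusted p = 0.108) and 1.66 ± 0.41 for Ccna2 (adjusted p = 0.127), so neither passed. Cks2, a small subunit that binds cyclin-dependent kinases, read 1516 and 1487 in Rag1-sufficient GFP+ and 672 and 586 in GFP-, then 473 and 877 in Rag1-/- GFP+ and 790, 844 and 986 in Rag1-/- GFP- samples. Its difference was 1.26 ± 0.27 (adjusted p = 0.0898), and the gene's other 2 probe sets gave 1.21 and 1.19. These 3 sets ranked the 4 groups alike and may read the same or near-identical transcripts, so they are not independent readings of Cks2. Foxm1, the transcription factor that activates many late cell cycle genes, read 71.5 and 102 in Rag1-sufficient GFP+, 67.1 and 67.6 in GFP-, 73.8 and 63.8 in Rag1-/- GFP+ and 72.2, 72.1 and 51.4 in Rag1-/- GFP- samples. One array alone was high for Foxm1, and its difference was 0.34 ± 0.20 (adjusted p = 0.57). Aurka and Melk, both mitotic kinase genes, differed by 0.18 and 0.20 and did not pass.

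In the checkpoint and APC/C group, 2 of 7 tested genes rose. Mad2l1 encodes MAD2, the checkpoint protein that blocks the APC/C at unattached kinetochores. It read 351 and 455 in Rag1-sufficient GFP+, 142 and 118 in GFP-, 145 and 184 in Rag1-/- GFP+ and 173, 161 and 235 in Rag1-/- GFP- samples. The lowest GFP+ reading in Rag1-sufficient mice was above the highest of the other 7 arrays, and Mad2l1 rose 3.07-fold, by 1.62 ± 0.22 (adjusted p = 0.0182), the largest difference among the 7 called members. Ube2c encodes the ubiquitin-conjugating enzyme that works with the APC/C to destroy cyclins and securin. It read 351 and 415 in Rag1-sufficient GFP+ and 173 and 141 in GFP-, then 186 and 202 in Rag1-/- GFP+ and 214, 174 and 182 in Rag1-/- GFP- samples. Every array other than the first 2 lay between 141 and 214, and Ube2c rose 2.44-fold, by 1.28 ± 0.17 (adjusted p = 0.0143).

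The checkpoint kinase genes were less even. Bub1 read 66.7 and 78.7 in Rag1-sufficient GFP+, 42.7 and 46.8 in GFP-, 23.0 and 44.5 in Rag1-/- GFP+ and 58.0, 27.1 and 47.2 in Rag1-/- GFP- samples. Bub1b, for the related checkpoint protein BubR1, read 62.0 and 70.7 in Rag1-sufficient GFP+, 46.2 and 49.9 in GFP-, 33.4 and 47.3 in Rag1-/- GFP+ and 44.0, 49.9 and 65.8 in Rag1-/- GFP- samples. For both genes Rag1-/- GFP+ replicate 1 was the lowest array, and neither difference passed: 0.68 ± 0.36 for Bub1 (adjusted p = 0.494) and 0.46 ± 0.20 for Bub1b (adjusted p = 0.398). Cdc20, the APC/C activator, read 123 and 103 in Rag1-sufficient GFP+, 98.7 and 93.2 in GFP-, 119 and 91.5 in Rag1-/- GFP+ and 93.4, 103 and 99.4 in Rag1-/- GFP- samples. Its fractions did not overlap in Rag1-sufficient mice, but a Rag1-/- GFP+ array read above a Rag1-sufficient GFP+ array. The difference in Rag1-sufficient mice was 0.23 ± 0.14 (adjusted p = 0.584). Pttg1, which encodes securin, and Espl1, for the separase that securin inhibits, differed by 0.35 and 0.10 and did not pass.

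**Figure D2:**
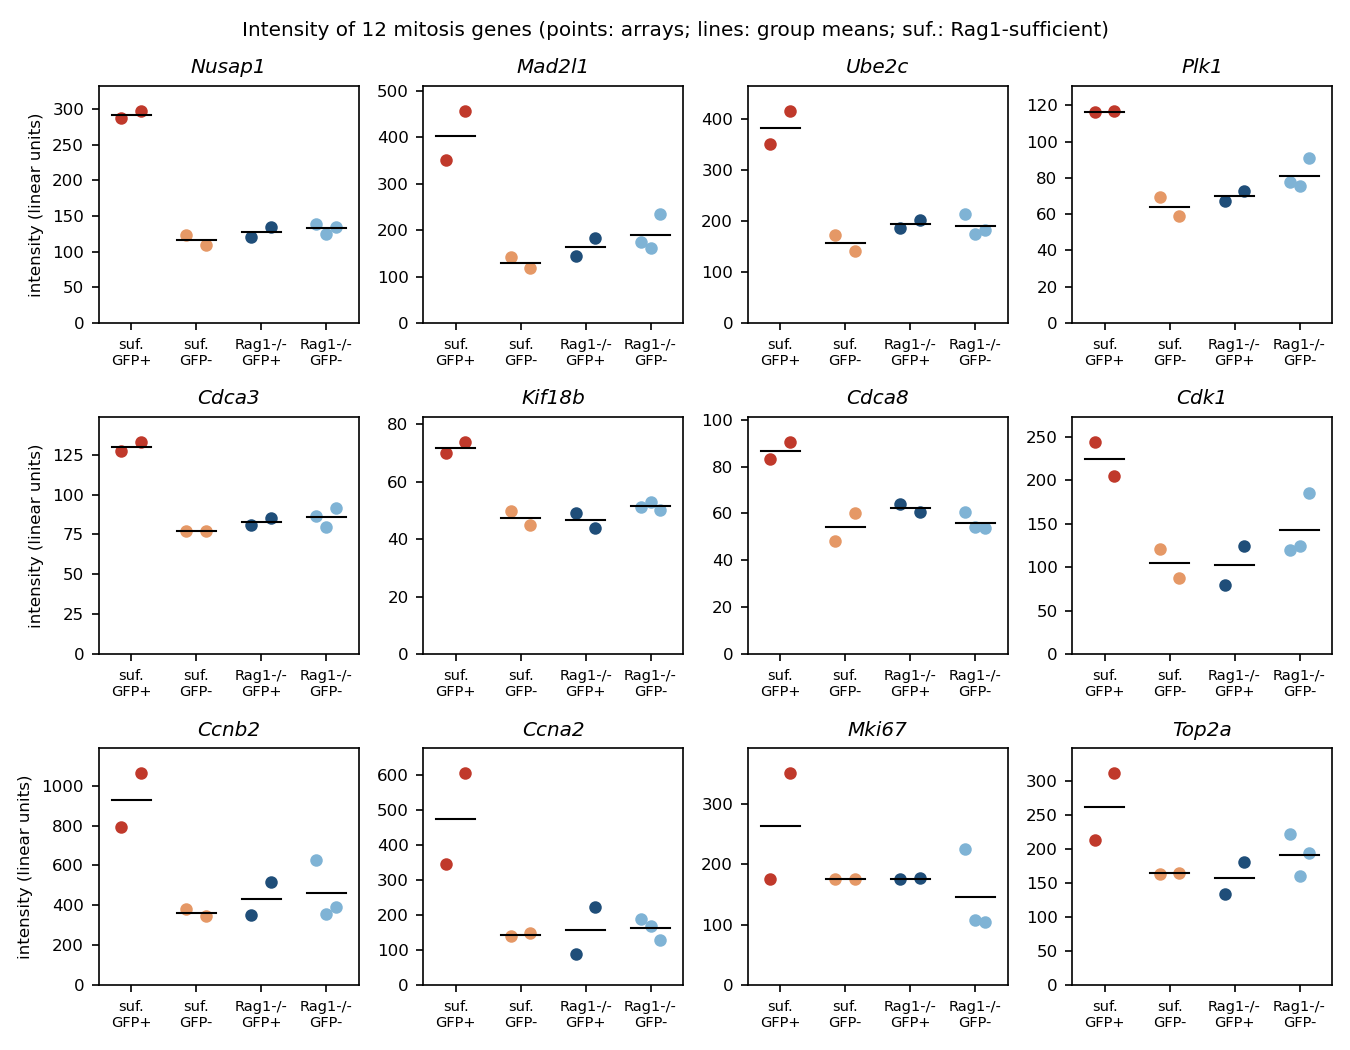
Deposited intensity (linear, each axis from 0) of 12 mitosis genes, with 1 point per array, a line at each group mean and the 4 groups along the x axis (2, 2, 2 and 3 arrays). For the 7 called genes, Cdk1, Ccnb2 and Ccna2 both Rag1-sufficient GFP+ points lie above all 7 other points, and for Mki67 and Top2a only 1 of the 2 does.

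Kinetochore and centromere genes, whose products join chromosomes to spindle microtubules, were mostly dim: 5 of 7 fell below the filter. Cenpa encodes the histone variant that marks the centromere. It read 395 and 347 in Rag1-sufficient GFP+ and 274 and 311 in GFP-, then 327 and 341 in Rag1-/- GFP+ and 325, 293 and 356 in Rag1-/- GFP- samples. Its fractions did not overlap in Rag1-sufficient mice, but a Rag1-/- GFP- array read above a Rag1-sufficient GFP+ array. The difference in Rag1-sufficient mice was 0.34 ± 0.16 (adjusted p = 0.421). Ndc80, whose product binds microtubules at the kinetochore, was below the filter at 39.5 and 43.5 in Rag1-sufficient GFP+, 32.7 and 36.3 in GFP-, 38.1 and 35.9 in Rag1-/- GFP+ and 40.4, 37.3 and 41.5 in Rag1-/- GFP- samples. All its readings lay within a narrow, dim range. The 7 genes had differences from 0.00 to 0.57 in the fit without a filter, and none was called.

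Of the chromosomal passenger complex, the machine that corrects wrong attachments and later guides cytokinesis, 1 of 4 genes rose. Cdca8, which encodes its borealin subunit, read 83.4 and 90.3 in Rag1-sufficient GFP+, 48.4 and 60.1 in GFP-, 64.1 and 60.5 in Rag1-/- GFP+ and 60.5, 54.3 and 53.6 in Rag1-/- GFP- samples. No other group reached the 2 Rag1-sufficient GFP+ readings, and Cdca8 rose 1.60-fold, by 0.68 ± 0.12 (adjusted p = 0.0443). With the filter left off it was no longer called. The catalytic and targeting subunits gave no such separation. Aurkb, for the Aurora B kinase, read 128 and 189 in Rag1-sufficient GFP+, 129.5 and 114 in GFP-, 148 and 141 in Rag1-/- GFP+ and 112, 118 and 129.5 in Rag1-/- GFP- samples. Birc5, for survivin, read 53.2 and 57.2 in Rag1-sufficient GFP+, 56.6 and 48.7 in GFP-, 50.0 and 43.9 in Rag1-/- GFP+ and 47.5, 46.3 and 50.0 in Rag1-/- GFP- samples. The groups overlapped for both, at differences of 0.36 ± 0.18 for Aurkb (adjusted p = 0.456) and 0.07 ± 0.10 for Birc5 (adjusted p = 0.88). The Birc5 difference changed sign, to -0.036, without Rag1-sufficient GFP- replicate 2.

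None of the 7 tested genes of chromosome structure passed. Top2a, the topoisomerase that untangles sister DNA, read 213 and 311 in Rag1-sufficient GFP+, 164 and 165 in GFP-, 134 and 181 in Rag1-/- GFP+ and 222, 159.5 and 193 in Rag1-/- GFP- samples. Only the second GFP+ array of Rag1-sufficient mice stood above all others, and the difference was 0.65 ± 0.23 (adjusted p = 0.275). Mki67, which encodes the proliferation antigen Ki-67, read 175.4 and 351 in Rag1-sufficient GFP+, 175.4 on both GFP- arrays, 175.4 and 177 in Rag1-/- GFP+ and 226, 108 and 104 in Rag1-/- GFP- samples. The deposited table thus held exactly the same value on 4 arrays, and the high Mki67 level rested on 1 array. Its difference was 0.50 ± 0.40 (adjusted p = 0.709). Equal values were common: 26 of the 55 members had the same value on at least 2 arrays. Of the 40 tested members 2 (Mki67 and Cdca2) held 1 value on every array of a group, beside 1827 of all 17445 tested probe sets. How equal values arose is not given in the sources used here.

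No condensin gene, whose products compact chromosomes, passed. Ncapd2 read 232 and 266 in Rag1-sufficient GFP+, 191 and 184 in GFP-, 206 and 197 in Rag1-/- GFP+ and 188, 168 and 163 in Rag1-/- GFP- samples, and Ncaph had its 2 highest readings on the same 2 arrays. Their differences were 0.40 ± 0.13 (adjusted p = 0.247) and 0.78 ± 0.21 (adjusted p = 0.169). Smc2, a core subunit, differed by 0.53 ± 0.18 (adjusted p = 0.266), and Ncapg, below the filter, by 0.22 ± 0.12 in the fit without one. Smc4, the other core subunit, read 288.5 and 349 in Rag1-sufficient GFP+, 287 and 313 in GFP-, 311 and 349 in Rag1-/- GFP+ and 313, 252.5 and 311 in Rag1-/- GFP- samples. Its groups overlapped throughout, and its difference of 0.08 ± 0.17 (adjusted p = 0.927) changed sign, to -0.014, after quantile normalization and, to -0.056, without Rag1-sufficient GFP+ replicate 2.

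Among the kinesin motors, 1 of 4 tested genes rose. Kif18b, for a kinesin that shortens astral microtubules, read 70.05 and 73.7 in Rag1-sufficient GFP+, 49.9 and 44.8 in GFP-, 49.2 and 43.9 in Rag1-/- GFP+ and 51.3, 53.0 and 50.3 in Rag1-/- GFP- samples. Its 2 Rag1-sufficient GFP+ readings were close together and above all others, and Kif18b rose 1.51-fold, by 0.59 ± 0.09 (adjusted p = 0.0257). Kif11, whose product pushes the spindle poles apart, read 193 and 387 in Rag1-sufficient GFP+, 107 and 120 in GFP-, 107 and 153 in Rag1-/- GFP+ and 171, 131 and 109 in Rag1-/- GFP- samples. Kif23, for a motor of the central spindle, read 499.6 and 701 in Rag1-sufficient GFP+, 306 and 307 in GFP-, 201 and 296 in Rag1-/- GFP+ and 296, 200.5 and 235 in Rag1-/- GFP- samples. For both motors the 2 Rag1-sufficient GFP+ arrays were the highest, but replicate 2 read far above replicate 1. Neither passed, at 1.26 ± 0.33 for Kif11 (adjusted p = 0.153) and 0.95 ± 0.26 for Kif23 (adjusted p = 0.168).

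Nusap1 was the member with the smallest p. It encodes a nucleolar and spindle-associated protein that bundles microtubules around chromosomes. It read 287 and 296.5 in Rag1-sufficient GFP+, 123 and 109 in GFP-, 121 and 134.5 in Rag1-/- GFP+ and 139, 124 and 134.5 in Rag1-/- GFP- samples. The other 7 arrays stayed between 109 and 139, so that the Rag1-sufficient GFP+ samples stood alone. Nusap1 rose 2.51-fold, by 1.33 ± 0.12 (adjusted p = 0.00843). Tpx2, which activates Aurora A on the spindle, read 56.6 and 69.55 in Rag1-sufficient GFP+, 44.5 and 39.5 in GFP-, 49.0 and 49.0 in Rag1-/- GFP+ and 44.5, 44.7 and 47.8 in Rag1-/- GFP- samples. In Rag1-sufficient mice its fractions did not overlap and its difference was 0.57 ± 0.11, short of the threshold (adjusted p = 0.0674). The other 3 tested spindle genes (Prc1, Ckap2l and Dlgap5) differed by 0.04 to 0.39 and did not pass.

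In the last group, Cdca3, whose product helps to trigger mitotic entry through degradation of the inhibitory kinase WEE1, read 127 and 133 in Rag1-sufficient GFP+, 77.0 and 77.4 in GFP-, 81.0 and 85.0 in Rag1-/- GFP+ and 86.6, 79.5 and 91.3 in Rag1-/- GFP- samples. The 2 Rag1-sufficient GFP+ readings lay well above the rest, and Cdca3 rose 1.68-fold, by 0.74 ± 0.09 (adjusted p = 0.013). Anln, for the contractile ring protein anillin, was below the filter at 39.5 and 54.0 in Rag1-sufficient GFP+, 34.5 and 34.3 in GFP-, 35.0 and 39.1 in Rag1-/- GFP+ and 35.0, 24.6 and 33.3 in Rag1-/- GFP- samples. It was highest in Rag1-sufficient GFP+ cells by a small margin and differed by 0.42 ± 0.18 without the filter (adjusted p = 0.456). Racgap1 and Ect2, which together switch on the small GTPase of the contractile ring, differed by 0.99 and 0.72 without passing (adjusted p = 0.121 and 0.201).

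The 7 calls were lost without either Rag1-sufficient GFP+ array, or without either Rag1-sufficient GFP- array. Such a fit leaves 1 array in a group and assumes that it varies like the others. Most calls over all probe sets were lost with them, so the loss was not particular to the members. The member median was 0.68 and 0.40 without GFP+ replicate 1 and 2, and 0.51 and 0.50 without GFP- replicate 1 and 2. Without either Rag1-/- GFP+ array more members were called, and so were more of all probe sets. Without Rag1-/- GFP- replicate 1, 2 or 3 the counts were 6, 5 and 6 members, beside 133, 68 and 135 of all tested probe sets. In simulated data of this size, limma recovered 68.0% of changes of 1 on the log2 scale and 1.1% of changes of 0.5. Each simulated array was drawn around the probe set's mean over all arrays, with independent normal errors and no other group difference. Equal values on several arrays were not simulated. The 200 changed probe sets were picked at random from all tested ones, so these shares do not give the rate for the members.

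Markers of other cells moved with the same comparison. Of 9 tested mast cell markers, 7 fell in GFP+ cells (Cma1, Tpsb2, Mrgprb1, Kit, Ms4a2, Hdc and Cyp11a1), beside 0.47% of all tested probe sets. The summed levels of all 12 were as given above. The 12 macrophage, monocyte and dendritic cell markers summed to 626 and 613 in Rag1-sufficient GFP+ against 774.5 and 852 in GFP- samples, with 1 of 9 called lower. The 10 NK and ILC1 markers summed to 4122 and 4115 in Rag1-sufficient GFP+ against 1683 and 1789 in GFP- samples, with 0 of 6 tested genes called. The 12 T cell markers summed to 4247 and 3737 against 3013 and 3009, with 0 of 11 called. The 14 keratinocyte markers summed to 3128 and 2706 in Rag1-sufficient GFP+ against 3212 and 4883 in GFP- samples, with 0 of 11 called. The part of any of these cells in the mitosis result was not tested.

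The promoters of the 7 called genes are shown because late cell cycle genes share known promoter elements, the cell cycle genes homology region (CHR), which recruits the DREAM and MuvB complexes, and CCAAT boxes, which bind NF-Y. The windows run from 250 bases before to 50 after the annotated start and are those of RefSeq for GRCm38.p6, written 5′ to 3′ on the gene's strand. Capitals mark TTTGAA or TTCGAA (CHR) and CCAAT, searched on both strands, so that the reverse forms TTCAAA and ATTGG are also in capitals. In Cdca8 a CHR and a CCAAT match share bases, and in Ube2c a pair of CCAAT matches on opposite strands does.
Plk1 (chr7:122159185-122159484, plus strand): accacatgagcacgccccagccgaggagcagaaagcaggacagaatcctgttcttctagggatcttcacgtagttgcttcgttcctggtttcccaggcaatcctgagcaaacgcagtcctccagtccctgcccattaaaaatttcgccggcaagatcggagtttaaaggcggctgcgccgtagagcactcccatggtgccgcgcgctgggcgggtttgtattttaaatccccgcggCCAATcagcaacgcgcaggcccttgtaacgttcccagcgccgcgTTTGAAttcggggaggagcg
Mad2l1 (chr6:66534971-66535270, plus strand): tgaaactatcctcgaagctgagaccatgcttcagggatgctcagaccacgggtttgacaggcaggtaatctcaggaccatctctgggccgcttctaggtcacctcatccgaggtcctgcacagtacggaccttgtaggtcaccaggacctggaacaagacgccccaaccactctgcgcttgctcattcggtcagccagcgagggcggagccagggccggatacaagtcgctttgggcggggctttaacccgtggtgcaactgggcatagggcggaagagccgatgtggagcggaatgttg
Ube2c (chr2:164769679-164769978, plus strand): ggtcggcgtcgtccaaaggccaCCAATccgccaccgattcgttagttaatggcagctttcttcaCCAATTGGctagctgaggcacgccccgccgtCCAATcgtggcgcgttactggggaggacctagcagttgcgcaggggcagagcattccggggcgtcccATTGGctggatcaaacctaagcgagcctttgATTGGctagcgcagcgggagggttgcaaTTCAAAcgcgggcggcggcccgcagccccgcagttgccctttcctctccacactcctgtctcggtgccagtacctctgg
Cdca8 (chr4:124936868-124937167, minus strand): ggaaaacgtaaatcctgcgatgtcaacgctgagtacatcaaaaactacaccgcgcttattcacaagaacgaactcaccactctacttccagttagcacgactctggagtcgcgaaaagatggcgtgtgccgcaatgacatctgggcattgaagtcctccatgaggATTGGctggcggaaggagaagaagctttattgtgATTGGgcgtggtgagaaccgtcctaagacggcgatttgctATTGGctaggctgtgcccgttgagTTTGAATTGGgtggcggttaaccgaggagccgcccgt
Kif18b (chr11:102925075-102925374, minus strand): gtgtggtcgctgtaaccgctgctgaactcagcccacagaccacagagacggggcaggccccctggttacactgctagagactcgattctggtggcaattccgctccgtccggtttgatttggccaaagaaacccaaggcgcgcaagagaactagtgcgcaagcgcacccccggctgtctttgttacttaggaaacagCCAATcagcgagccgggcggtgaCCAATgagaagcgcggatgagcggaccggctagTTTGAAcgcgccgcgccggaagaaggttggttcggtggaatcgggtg
Nusap1 (chr2:119618048-119618347, plus strand): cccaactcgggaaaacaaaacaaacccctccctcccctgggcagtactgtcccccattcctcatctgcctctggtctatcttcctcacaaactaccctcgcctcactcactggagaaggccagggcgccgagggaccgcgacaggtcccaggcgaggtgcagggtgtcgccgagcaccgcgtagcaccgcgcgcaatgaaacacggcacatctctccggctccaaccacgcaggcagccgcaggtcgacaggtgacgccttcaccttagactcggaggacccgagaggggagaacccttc
Cdca3 (chr6:124829926-124830225, plus strand): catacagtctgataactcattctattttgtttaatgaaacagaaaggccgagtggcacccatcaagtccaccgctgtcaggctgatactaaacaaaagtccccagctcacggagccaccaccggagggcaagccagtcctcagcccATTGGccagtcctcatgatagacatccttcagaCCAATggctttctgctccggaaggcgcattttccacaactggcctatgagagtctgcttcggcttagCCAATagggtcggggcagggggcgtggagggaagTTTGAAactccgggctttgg
A match is a description of the letters and not a binding site. Of the 7 windows, 5 held both elements, while those of Nusap1 and Mad2l1 held neither. CCAAT matches numbered 6 in Ube2c, 4 in Cdca8, 3 in Cdca3, 2 in Kif18b and 1 in Plk1, and each of these 5 windows had 1 CHR match.

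Promoter windows were found for 46 of the 56 listed genes (48 windows). A CHR match was in 79.2% of these windows, beside 19.2% of all 32851 promoter windows and 13.6% of the 13800 windows of genes with a tested probe set. For CCAAT the shares were 75% of member windows and 37.4% of all windows, and for at least 2 CCAAT matches 52.1% and 11.7%. Both elements occurred together in 68.8% of member windows and 7.52% of all windows. CHR matches lay near the start, at a median of 7 bases before it, and CCAAT matches further upstream, at a median of 65 bases before it. That late cell cycle promoters carry these elements is textbook knowledge, and the shares describe the list and are no test. The 23 tested members with both elements had a median gate difference of 0.65 on the log2 scale in Rag1-sufficient mice, with 5 called, and the 6 tested members with neither had a median of 0.56, with 2 called. No tested member had a CHR match alone and 1 (Cks2) had CCAAT alone, and the difference between these sets was not tested.

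**Figure D3:**
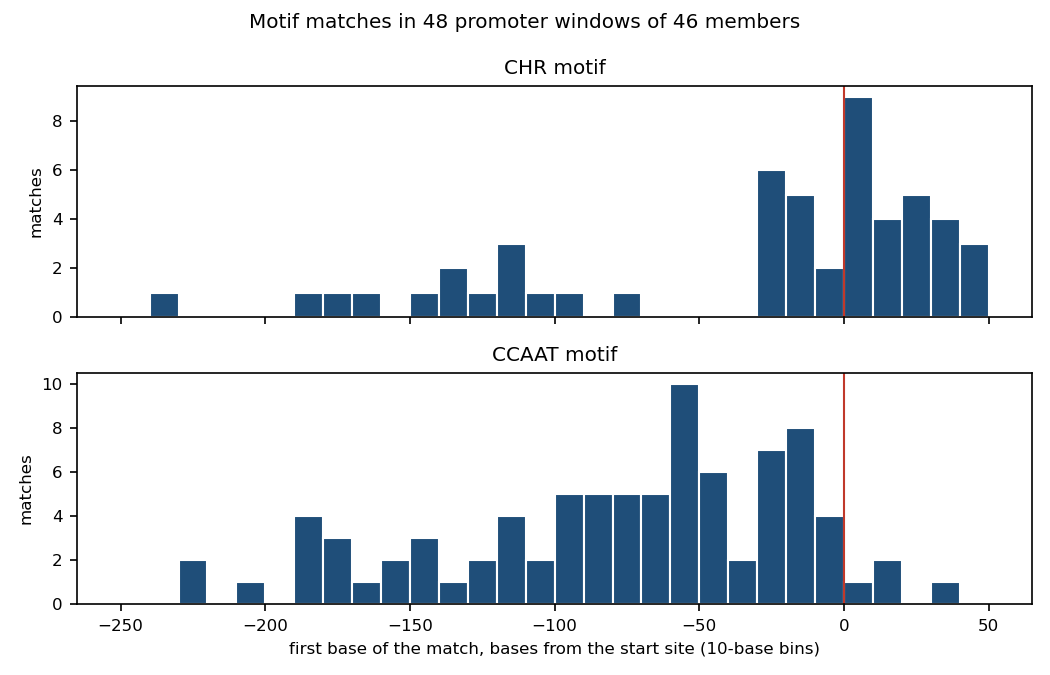
Position of each CHR match (TTTGAA or TTCGAA, upper panel) and CCAAT match (lower panel), either strand, in the 48 promoter windows of 46 listed genes, as counts per 10-base bin against the distance of the match's first base from the annotated start (red line at 0). CHR matches pile up around the start, with a median 7 bases before it, and CCAAT matches lie further upstream, with a median 65 bases before it.

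The second comparison was the same gate in Rag1-/- mice, and no mitosis gene passed the test there. Limma called 0 of 40 members and 0 of all 17445 probe sets (0% called). At an unadjusted p under 0.05 it gave 0 members and 1098 probe sets. The member differences fell on both sides of 0, with 21 positive (48% of all tested probe sets were) and 19 negative and a median of 0.02, where the median of all tested probe sets was -0.01. The 5 members with the smallest p were Bub1b at -0.39 ± 0.19, Plk1 at -0.21 ± 0.11, Cdk1 at -0.49 ± 0.25, Ncapd2 at 0.22 ± 0.12 and Cks2 at -0.43 ± 0.24, all with an adjusted p of 0.688. The 2 Rag1-/- GFP+ arrays lay above all 3 GFP- arrays for 6 of 55 members and below them for 5, beside 7.4% and 7.96% of all probe sets.

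The 7 genes that rose in Rag1-sufficient mice had small gate differences of either sign in Rag1-/- mice. Nusap1 differed by -0.05 ± 0.11, Ube2c by 0.03 ± 0.15, Cdca3 by -0.05 ± 0.09 and Mad2l1 by -0.20 ± 0.21. Kif18b differed by -0.15 ± 0.08 and Cdca8 by 0.15 ± 0.11. The 2 Rag1-/- GFP+ arrays also differed from each other: replicate 2 read above replicate 1 for 31 of 55 members and below it for 22, by a median of 0.06 on the log2 scale. Over all 17445 tested probe sets it read above for 9109 and below for 7885, by a median of 0.02. The median absolute difference was 0.17 for the members and 0.20 for all tested probe sets, so the members did not stand out. Of the 8 mitotic entry genes 5 were higher in replicate 2, among them Ccna2 (222 against 89.9) and Cks2 (877 against 473), and Aurka, Melk and Foxm1 were lower. Markers of other cells differed between them too, with summed NK and ILC1 markers of 2200 and 6518 and summed mast cell markers of 4919 and 1384. The Cks2 difference changed sign, to 0.012, without replicate 1 and was -0.88 without replicate 2.

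**Figure D4:**
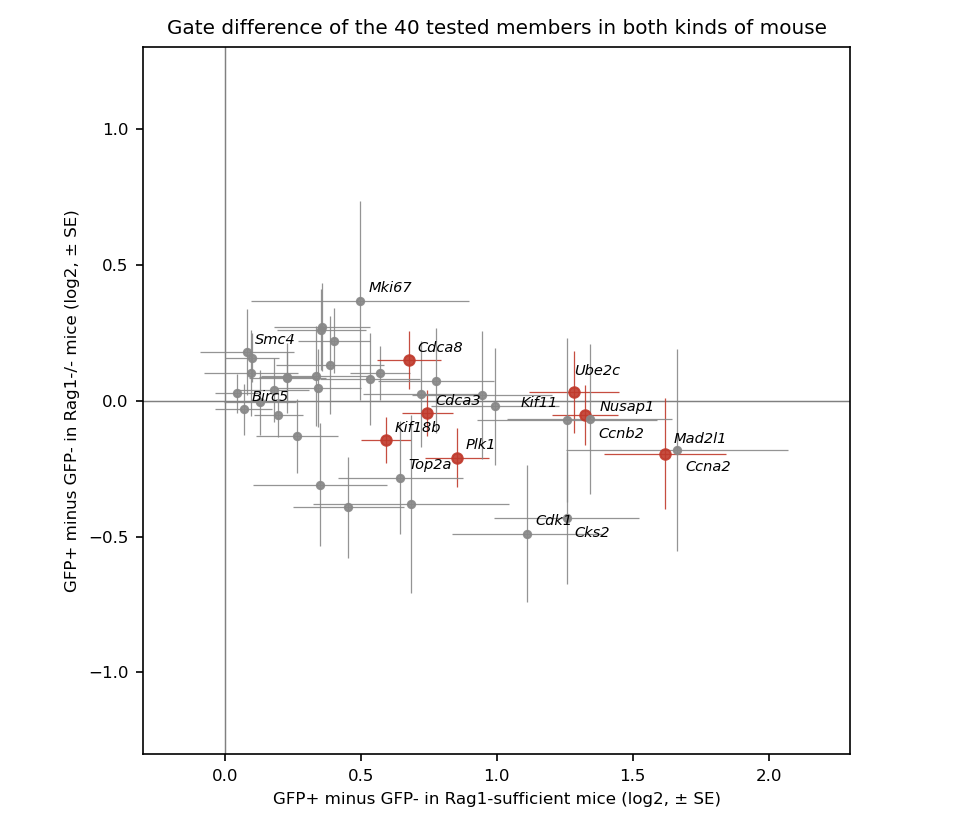
Fitted difference between GFP+ and GFP- cells (log2, with SE bars) of the 40 tested members in Rag1-sufficient mice (x axis) and in Rag1-/- mice (y axis); the 7 members called in Rag1-sufficient mice are red. All points lie to the right of 0 on the x axis, and they lie on both sides of 0 on the y axis.

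The next comparison was Rag1-/- against Rag1-sufficient mice within GFP+ ILCs. In Rag1-/- GFP+ cells 3 mitosis genes fell (Nusap1, Cdca3 and Kif18b) and none rose. Nusap1 fell by 1.19 ± 0.12 on the log2 scale (adjusted p = 0.0162), Cdca3 by 0.64 ± 0.09 (adjusted p = 0.0419) and Kif18b by 0.62 ± 0.09 (adjusted p = 0.0432). Of all tested probe sets 0.195% were called lower and 0.0516% higher (0.246% in either direction), beside 3 of 40 members. This comparison shares the 2 Rag1-sufficient GFP+ arrays with the first, so that high readings on those arrays enter both. For the other 4 genes that rose in the first comparison, the differences here were -1.28 ± 0.22 for Mad2l1 (adjusted p = 0.0899), -0.98 ± 0.17 for Ube2c (0.08), -0.73 ± 0.12 for Plk1 (0.0655) and -0.47 ± 0.12 for Cdca8 (0.309).

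Differences were negative for 37 of 40 tested members (55.7% of all tested probe sets), with a median of -0.48 beside -0.02 for all tested probe sets. Both Rag1-/- GFP+ arrays lay below both Rag1-sufficient GFP+ arrays for 37 of 55 members, beside 16.9% of all probe sets. Beyond the genes above, the 5 largest differences were those of Ccna2 (-1.69 ± 0.41), Kif23 (-1.27 ± 0.26), Cks2 (-1.22 ± 0.27), Cdk1 (-1.16 ± 0.28) and Bub1 (-1.15 ± 0.36). Spc24, Smc4 and Dlgap5 were the 3 members above 0. Each of the 2 Rag1-/- GFP+ arrays was low on its own: replicate 1 read below both Rag1-sufficient GFP+ arrays for 40 of 55 members and replicate 2 for 43, beside 36.8% and 39.8% of all probe sets.

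The 3 calls did not all hold when any 1 array was left out. Calls over all probe sets fell too, except without Rag1-/- GFP+ replicate 2, where they rose. Leaving out 1 of the 4 Rag1-sufficient arrays or 1 Rag1-/- GFP+ array leaves 1 array in a group. Over all fits with 1 array left out the member median ran from -0.59 to -0.27. Without Rag1-/- GFP- replicate 2, 0 members and 3 of all tested probe sets were called. Nusap1 alone was called without Rag1-/- GFP- replicate 1 or 3, beside 34 and 35 of all tested probe sets. Without the filter, after quantile normalization, without the intensity trend and with array weights, Nusap1 alone was called (without the filter 0.112% of all probe sets were called lower). With only the compared groups in the fit, and with the replicate number as a block, 0 members were called. Mast cell markers summed to 945.5 and 1028 in Rag1-sufficient against 4919 and 1384 in Rag1-/- GFP+ cells, with 0 of 9 tested genes called, and T cell markers to 4247 and 3737 against 4469 and 7809, with 1 of 11 called (Cd3e, higher). Their part in the result was not tested.

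In GFP- cells the same comparison of Rag1-/- with Rag1-sufficient mice was made, and no mitosis gene passed the test. Limma called 0 of 40 members and 25 of all 17445 probe sets (0.143% called). At an unadjusted p under 0.05 it gave 2 members and 3014 probe sets. The median member difference was 0.09, beside 0.00 for all tested probe sets, and 25 of 40 members were positive, beside 50.1% of all tested probe sets. By p the first 5 were Plk1 at 0.34 ± 0.11 (adjusted p = 0.207), Mad2l1 at 0.53 ± 0.21 (0.249), Cks2 at 0.47 ± 0.24 (0.351), Ube2c at 0.28 ± 0.15 (0.373) and Nusap1 at 0.19 ± 0.11 (0.386). All 3 Rag1-/- GFP- arrays lay above both Rag1-sufficient GFP- arrays for 10 of 55 members and below them for 3, beside 17.2% and 19.6% of all probe sets.

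Whether the gate difference itself depended on Rag1 was tested by the interaction, the gate difference in Rag1-/- minus that in Rag1-sufficient mice. It was negative for 37 of 40 tested members (51.8% of all tested probe sets), with a median of -0.50 beside -0.01 for all tested probe sets, and limma called 0 members and 0 probe sets (0% called). At an unadjusted p under 0.05 there were 19 members and 2378 probe sets. The smallest p-values among members were those of Nusap1 (-1.38 ± 0.16, adjusted p = 0.0723), Plk1 (-1.06 ± 0.16, adjusted p = 0.0723) and Cdca3 (-0.79 ± 0.13, adjusted p = 0.0863), followed by Mad2l1 (-1.81 ± 0.30) and Kif18b (-0.74 ± 0.12), both with an adjusted p of 0.103. The gate difference was therefore not shown to differ between the 2 kinds of mouse for any single gene. Without Rag1-/- GFP+ replicate 2, which leaves 1 array in that group, the member median was -0.535. Without Rag1-/- GFP- replicate 1, 2 or 3, the fit called 0 members and 0 probe sets.

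Other cell cycle genes were set beside the members for the gate in Rag1-sufficient mice. Their lists were drawn up by function, but with earlier results of these data known. Of 42 tested further mitosis genes 1 rose: Cenpm, for a centromere protein, by 0.64 ± 0.10 (adjusted p = 0.0328), from 132 and 122 in GFP- to 196 and 201 in GFP+ samples. Their median difference was 0.22, and 36 of 42 were positive. Of all tested probe sets 0.332% were called higher and 53.6% were positive, with a median of 0.01. Of 43 tested DNA replication genes 2 rose, namely Rfc4, a subunit of the clamp loader, by 1.79 ± 0.27 (adjusted p = 0.0256), and Asf1b, a histone chaperone of the replication fork, by 1.09 ± 0.19 (adjusted p = 0.0478). Rfc4 read 377 and 348 in GFP+ against 91.5 and 118 in GFP- samples. The replication genes had a median of 0.34, with 39 of 43 positive.

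No gene in the lists of regulators and partners of the mitotic genes passed. Of all tested probe sets 0.332% were called higher and 0.47% lower. Lists of 10 to 22 genes are too short for 0 calls to be told apart from these shares. Among the DREAM, MuvB, E2F and NF-Y regulators, which repress or activate late cell cycle promoters, limma called 0 of 22, with a median of 0.25 and 21 positive. The APC/C subunits and partners (among them Fzr1 and Ube2s) gave 0 of 16 and a median of 0.24, and the G1 cyclins with their kinases and inhibitors 0 of 16 and 0.12. The cohesin ring and its loaders, which non-dividing cells also use, gave 0 of 11 with a median of -0.02, and the tubulins and microtubule proteins 0 of 10 with 0.09. In Rag1-/- against Rag1-sufficient GFP+ cells none of these 7 lists held a called gene, beside 0.246% of all tested probe sets called. The medians were -0.29 for further mitosis genes, -0.35 for DNA replication genes and -0.04 for cohesin, beside -0.02 for all tested probe sets.

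**Figure D5:**
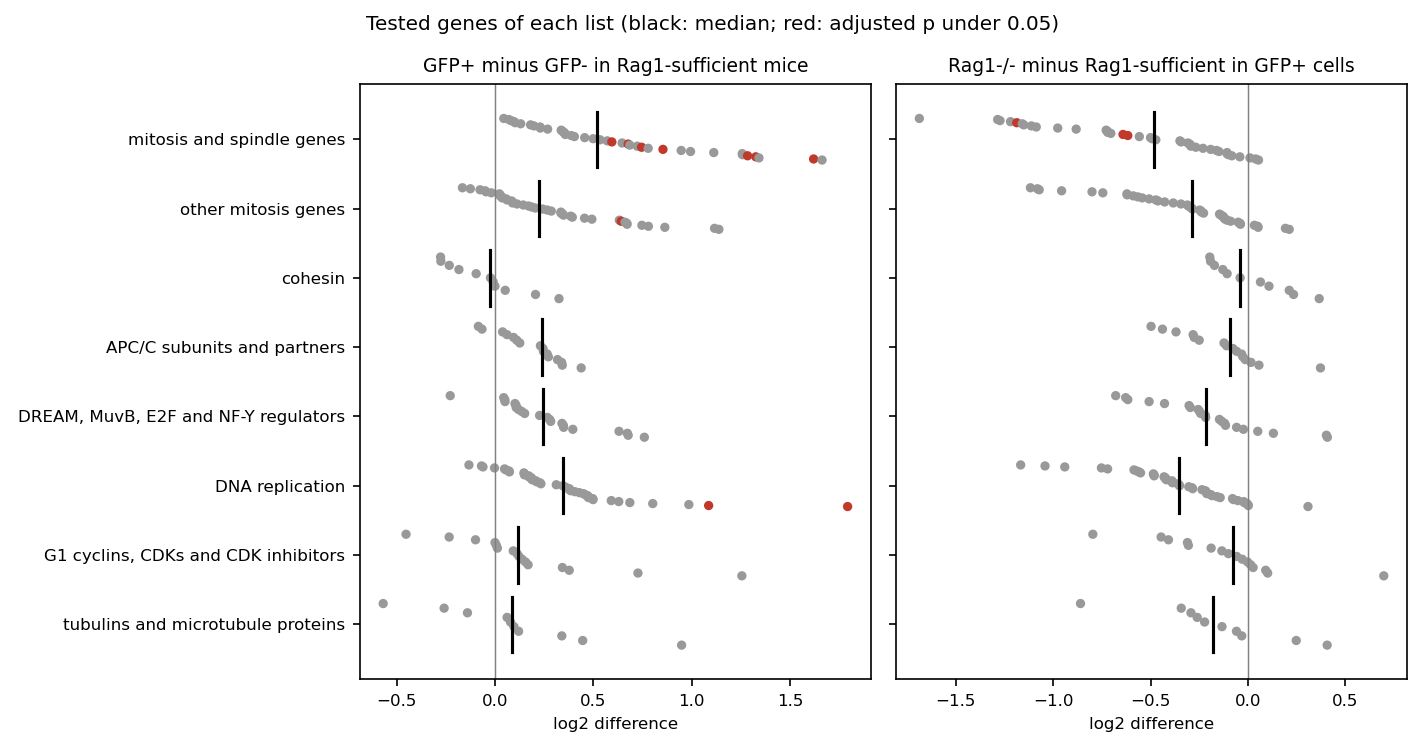
Fitted log2 difference of every tested gene (points) of the mitosis and spindle genes and of 7 other cell cycle lists, for GFP+ minus GFP- in Rag1-sufficient mice (left) and for Rag1-/- minus Rag1-sufficient in GFP+ cells (right); black lines are medians and red points have an adjusted p under 0.05. The mitosis and spindle genes have a median of 0.52 on the left and -0.48 on the right, while the cohesin genes centre near 0 in both panels.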

How the data were processed

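Single-stranded biotinylated DNA was hybridised to 9 one-colour arrays, per the labels' protocols. The authors deposited 1 linear intensity per probe set and array (24922 probe sets). MAS5 is the tool listed in the submitters' processing notes, where its version and role are not stated. Normalization between arrays and the genome build are not given in the sources used here; array medians ran from 74.1 to 77.6. The number of arrays limits the precision.

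The intensities were transformed as log2(value + 1), which understates changes of dim genes, and the dimmest 30% of probe sets by mean were left out (17445 tested). One mean per group (2, 2, 2 and 3 arrays) was fitted with limma 3.58.1 in R 4.3.3 (lmFit, then eBayes with trend; residual degrees of freedom 5, prior 3.56). Two-sided p-values were adjusted over all tested probe sets after Benjamini and Hochberg, with 0.05 as threshold. Differences are given ± SE. The fit was tested on simulated data with 200 changed probe sets.

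The 56 members, their 8 roles, the 7 other lists and the marker lists were chosen with earlier results of these data known. Genes named are members past the threshold, the 5 smallest p in each comparison and a panel over the roles; others were named after their values were seen. Alternatives were the pseudocount, filter, quantile normalization, replicate block, trend, array weights, groups in the fit, probe set choice and leaving out each array.

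Of 11 marker lists, those not given in the report had these summed levels over the 9 arrays: B and plasma cell 479.9 to 601, neutrophil 191 to 285, fibroblast 859.9 to 1738, endothelial 288.5 to 425 and erythroid 89.4 to 104.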

Additional observations from a re-analysis of the deposited data

How the results depend on the processing

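In Rag1-sufficient mice the count of members called between GFP+ and GFP- cells (7 of 40) moved to 18 with array weights and 3 with only the compared groups in the fit, and stayed between 5 and 8 with the other pseudocount, filters, quantile normalization, no trend and the other probe set choice. All probe sets called (140) moved to 1290 with array weights. For Rag1-/- against Rag1-sufficient GFP+ cells, members called (3) moved to 1 without a filter, after quantile normalization, without the trend and with array weights, and to 0 with only the compared groups. All probe sets (43) moved to 17 after quantile normalization, 3 without the trend and 0 with only the compared groups. In GFP- cells all probe sets (25) moved to 39 at a pseudocount of 16, 9 with the dimmest 50% left out, 1168 with array weights and 8 with only the compared groups. For the interaction (0 members, 0 probe sets), array weights gave 1 member and 31 probe sets, and leaving out the dimmest 50% or quantile normalization gave 1 probe set each. With the dimmest 50% left out, so that 24 members remained in the fit, the member medians were 0.76 (gate, Rag1-sufficient), -0.71 (GFP+ cells by Rag1) and -0.86 (interaction). Apart from fewer members in that fit, the cause was not tested.

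The replicate numbers are shared by the groups, but samples of the same number did not deviate together (correlations from -0.51 to 0.24 between groups), so the numbers were not taken as pairs. With the number as a replicate block, members called were 4 and 0, and probe sets 73, 2 and 6, for the gate in Rag1-sufficient mice, Rag1-/- in GFP+ cells and (probe sets only) Rag1-/- in GFP- cells.

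Leaving out 1 array at a time gave 0 to 9 members and 3 to 335 probe sets for the gate in Rag1-sufficient mice, 0 members and 0 to 7 probe sets in Rag1-/- mice, 0 to 3 and 1 to 135 for Rag1-/- in GFP+ cells, 0 and 1 to 139 in GFP- cells, and 0 to 8 and 0 to 500 for the interaction. These ranges include fits that leave 1 array in a group. Member medians ran from 0.40 to 0.68, -0.04 to 0.07, -0.59 to -0.27, 0.06 to 0.10 and -0.62 to -0.40. Of 700 values of single members under alternatives, 601 kept their direction and side of the threshold, 81 lost and 14 gained a call, and 4 changed sign. These were Smc4 (-0.014 after quantile normalization, -0.056 to 0.22 without 1 array), Birc5 (-0.036 to 0.18) and Cks2 in Rag1-/- mice (-0.88 to 0.012). Only members called in the main fit could lose a call, so the 601 include uncalled values that stayed uncalled. With all arrays kept, calls by Rag1 in GFP+ cells were lost in 6 of 8 alternatives for Cdca3, 6 of 7 for Kif18b and 2 of 8 for Nusap1. For the gate in Rag1-sufficient mice the losses ran from 0 of 8 (Nusap1 and Cdca3) to 4 of 7 (Cdca8). The fit with only the compared groups was not run for the interaction, which needs all 4.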
